A study of Mus musculus with 12 samples.

Results

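The miR-130 and miR-301 family was followed across the colon and the blood of mice with chemically induced colitis. Its members were chosen by name, as the mature arms of the genes Mir130a, Mir130b, Mir301 (which gives miR-301a) and Mir301b, listed in the deposited tables as mmu-mir-130a-3p, mmu-mir-130a-5p, mmu-mir-130b-3p, mmu-mir-130b-5p, mmu-mir-301a-3p, mmu-mir-301a-5p and mmu-mir-301b-3p and written miR-130a-3p and so on below. All 7 names were found among the 1978 entries of the deposited count table, and the rule that chose them uses names and no measured value, although earlier results of these data were known when the family was picked. Each of 6 mice gave a colon and a blood library of small RNA, 12 libraries in all. The mice were wild-type C57BL/6 males of 8 weeks. In the DSS group, 3 mice drank water with 1.5% (wt/vol) dextran sulfate sodium (DSS), an agent that injures the colon epithelium, for 7 days and were killed on day 8. The 3 control mice, kept over the same period, were given plain drinking water. The methods state that the sequenced mice were picked from a larger set by disease activity index, so the groups are not a random draw of treated mice.

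Mice 1, 7 and 9 are the DSS mice and mice 2, 4 and 8 the controls, as the library names in the study's heatmaps place them. The disease state in the sample labels differs, with mice 1, 2 and 4 marked as diseased and mice 7, 8 and 9 as controls, and under that grouping the directions of the 4 tested members in colon turned and 0 of all 542 miRNAs tested in colon passed, members included. The labels also contradict themselves on tissue. The tissue used here was checked against the miRNA markers of each tissue: the summed level of 5 erythroid miRNAs was 885693 to 1329592 CPM in the blood libraries and 2433 to 3680 CPM in the colon libraries, and that of 8 epithelial miRNAs was 40007 to 153205 CPM in colon and 1160 to 1738 CPM in blood (CPM, counts per 1000000, scaled by TMM factors over all 12 libraries, so that a sum can exceed 1000000). Total counts were 15060553 to 20106226 per colon library and 21127134 to 32944792 per blood library. Identically sequenced miR-486a-5p and miR-486b-5p together took 74.7% to 83.0% of the counts of every blood library, against 0.251% to 0.442% in colon. The blood totals exceed the mapped reads per sample that the study reports, so some reads are counted under several names. Levels of miR-486a-5p and miR-486b-5p were near-equal in blood, so their share of reads is probably lower than their share of counts. Values on total counts alone carry that inflation in blood.

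MicroRNAs are cut from a hairpin whose arms give a 5p and a 3p strand, and a strand loaded into an Argonaute protein represses messenger RNAs that pair with its seed, the bases near its 5′ end. The 3p arms of the miR-130 and miR-301 family share a seed and can therefore bind the same target sites, while their 5p arms are usually regarded as passenger strands. The family is known for its place in vascular, fibrotic and proliferative signalling. Whole blood is dominated by RNA of red cells and colon by RNA of epithelium and muscle.

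The mature sequences show why the members were read together and where they can be told apart. They are written 5′ to 3′ from the deposited tables, with bases 2 to 8, the seed, in capitals. The 3p arms, which carry the shared seed, are:
miR-130a-3p: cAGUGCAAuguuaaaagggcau
miR-130b-3p: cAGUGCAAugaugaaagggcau
miR-301a-3p: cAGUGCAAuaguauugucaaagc
miR-301b-3p: cAGUGCAAugguauugucaaagc
The 5p arms of the family that are members do not share that seed:
miR-130a-5p: gCUCUUUUcacauugugcuacu
miR-130b-5p: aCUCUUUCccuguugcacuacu
miR-301a-5p: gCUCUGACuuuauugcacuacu
Counted from the 5′ end, miR-130a-3p and miR-130b-3p differ by 2 substitutions, U11A and A13G, and miR-301a-3p and miR-301b-3p by 1, A10G. No member has an identical sequence under another name in the table. A read with an error at the few distinguishing bases can be assigned to the other paralog. The split between close paralogs is uncertain to that extent, above all for miR-301a-3p against miR-301b-3p. RefSeq (GRCm38.p6) holds the same mature sequence for 6 of the 7 members, and miR-301b-3p was read from the deposited table alone. A further 4 entries of the table carry the same bases 2 to 8, namely miR-130c, miR-721, miR-6341 and miR-6389, and each had 0 counts in all 12 libraries.

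The hairpins show how the arms lie in each gene, with the mature arms in capitals and sequence from RefSeq (GRCm38.p6):
Mir130a: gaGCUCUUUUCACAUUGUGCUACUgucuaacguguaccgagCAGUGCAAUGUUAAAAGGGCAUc
Mir130b: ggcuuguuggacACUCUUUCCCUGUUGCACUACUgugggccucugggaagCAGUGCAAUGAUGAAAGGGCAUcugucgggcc
Mir301: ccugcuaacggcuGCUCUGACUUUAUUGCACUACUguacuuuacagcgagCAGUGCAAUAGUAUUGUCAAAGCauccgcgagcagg
Mir301b: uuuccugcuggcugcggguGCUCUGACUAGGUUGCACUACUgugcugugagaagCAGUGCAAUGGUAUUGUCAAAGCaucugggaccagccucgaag
Mir130a lies at chr2:84741115-84741178 on the minus strand, outside any other gene of GENCODE vM21. Mir301 lies at chr11:87113004-87113089 on the plus strand, in an intron of the protein-coding gene Ska2. Mir130b at chr16:17124061-17124142 and Mir301b at chr16:17124400-17124496 are neighbours on the minus strand, 258 bases apart, and both lie in an intron of the protein-coding gene 2610318N02Rik on the same strand.

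The family was of low to middling abundance, and its arms differed widely. In colon, the mean level over 6 libraries was 18.5 CPM for miR-130b-5p, 7.75 CPM for miR-130a-3p, 7.36 CPM for miR-301a-5p and 2.46 CPM for miR-130b-3p, which placed them at ranks 228, 285, 291 and 396 among the 1300 entries counted there. In blood, the order changed to 35.8 CPM for miR-130b-5p, 20.2 CPM for miR-130b-3p, 4.24 CPM for miR-301a-5p and 3.02 CPM for miR-130a-3p, at ranks 119, 141, 253 and 278 of 1121. These levels are CPM scaled within each tissue, so they rank the members in a tissue and do not compare the tissues. Neighbours in these orders whose libraries overlap were miR-130a-3p and miR-301a-5p, in both tissues.

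The other 3 members sat at the limit of detection. miR-301a-3p, usually described as the guide strand of its hairpin, had 0 to 5 counts in the colon libraries and 0 to 14 in the blood libraries. miR-301b-3p had 0 to 4 counts in colon. In blood, it had 9 counts in mouse 1 and 0 in the other 5 mice. The last, miR-130a-5p, had 0 or 1 count in each colon library and 0 in every blood library. A count of 0 allows up to 3 counts, which was 0.116 to 0.215 CPM in the colon libraries and 0.0755 to 0.173 CPM in the blood libraries, and intervals of this kind cover counting error only. These 3 arms did not pass the filter on low counts, so 4 of the 7 members were tested in each comparison below.

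To ask whether colitis changed the family at the site of injury, DSS and control colon were compared. Both arms of miR-130b were lower in DSS mice, while miR-130a-3p and miR-301a-5p did not pass the test. The 2 members that fell are the arms of a single hairpin. A miRNA is called SDE (significantly differentially expressed) where its fold change was over 1.5 and its p in edgeR's quasi-likelihood test, adjusted after Benjamini and Hochberg, reached 0.05 or less. Of the 4 tested members 2 were SDE, both lower, where 10.1% of all 542 tested miRNAs were SDE, 4.24% lower and 5.9% higher.

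miR-130b-3p, a seed-bearing arm, stood at 1.58, 1.13 and 1.70 CPM in DSS mice 1, 7 and 9, and at 3.20, 3.44 and 3.70 CPM in control mice 2, 4 and 8. Every DSS mouse was below every control mouse, from 20 to 44 counts in the DSS libraries and 48 to 59 in the controls. The log2 fold change was -1.22 ± 0.24 (SE), or 2.33-fold lower, with an adjusted p of 0.0431 in edgeR's quasi-likelihood test.

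miR-130b-5p, the other arm of that hairpin, stood at 12.2, 13.1 and 14.7 CPM in the DSS mice and at 21.2, 27.0 and 22.8 CPM in the controls. Again the groups did not overlap. Its log2 fold change was -0.82 ± 0.17 (SE), or 1.77-fold lower, with an adjusted p of 0.0431 by the same edgeR test. Across the 6 colon libraries the levels of these arms followed each other with Pearson's r = 0.94 on the log2(CPM + 1) scale, a description over points that share libraries and groups.

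miR-130a-3p, the closest paralog of miR-130b-3p, stood at 8.02, 8.74 and 8.71 CPM in the DSS mice and at 7.87, 6.82 and 6.33 CPM in the controls. The lowest DSS mouse was only slightly above the highest control mouse. Its log2 fold change was 0.28 ± 0.16 (SE), with an adjusted p of 0.268 in edgeR's quasi-likelihood test. In all, 3 of the 4 tested members had groups that did not overlap, 2 lower and 1 higher in DSS mice, where 38.6% of all tested miRNAs did so, 16.1% lower and 22.5% higher.

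miR-301a-5p stood at 5.95, 7.44 and 9.71 CPM in the DSS mice and at 5.93, 8.57 and 6.58 CPM in the controls. These groups overlapped widely. The log2 fold change was 0.14 ± 0.24 (SE), with an adjusted p of 0.706 in edgeR's quasi-likelihood test.

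**Figure D1:**
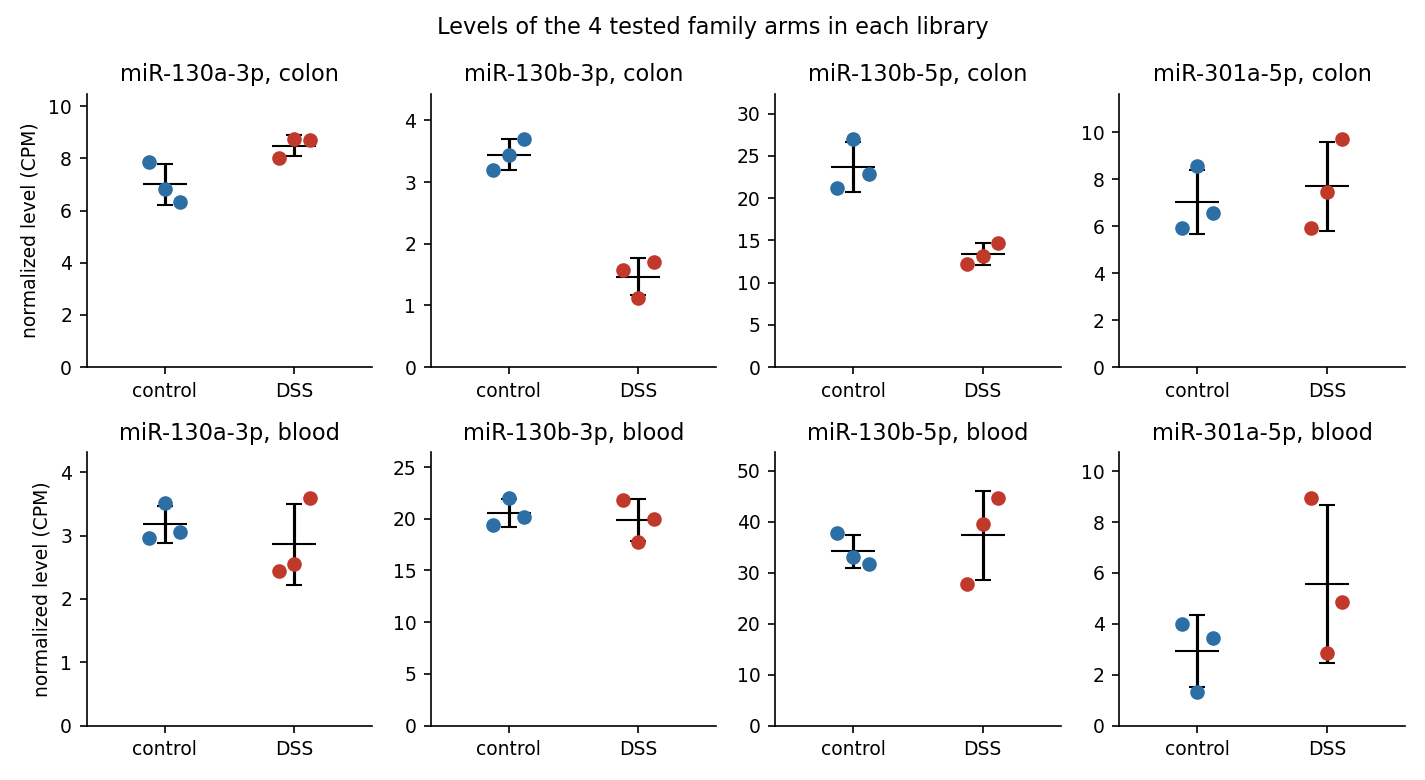
Normalized level in CPM (TMM factors within a tissue, y axes from 0) of the 4 tested arms in colon (top) and blood (bottom). Each point is 1 library, the bar is the mean and the whiskers are the SD over 3 mice. In colon, all DSS points of both miR-130b arms lie below all control points, and in blood the groups overlap in every panel.

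The colon calls were close to the threshold. Both were lost, with adjusted p of 0.0588 to 0.170 in edgeR's quasi-likelihood test and the direction unchanged, when libraries were scaled by upper-quartile factors or total counts alone, or when all 12 libraries shared a fit. Over all miRNAs these settings called 8 of 542, 47 of 542 and 0 of 680, against 55 of 542. Both were also lost without mouse 2 (adjusted p 0.0925 for each arm), mouse 4 (0.151), mouse 7 (0.101) or mouse 8 (0.147), each of which leaves 5 libraries and 0 calls over all 564 to 568 miRNAs tested, so that these losses are not particular to the members. miR-130b-5p was also lost without mouse 1 (0.0572), where 44 of 569 miRNAs were called.

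Markers of other cell types moved in the same colon libraries. The summed level of 8 epithelial miRNAs was 52896 to 121841 CPM in DSS colon and 155668 to 195315 CPM in control colon, with 4 of the 8 SDE and lower. Of 4 myeloid miRNAs 2 were SDE and higher, as were 1 of 4 stromal and 1 of 3 lymphoid miRNAs, while 0 of 4 smooth muscle, 0 of 2 endothelial and 0 of 4 tested erythroid miRNAs were SDE. The endothelial sum was nevertheless 6860 to 7339 CPM in DSS colon and 5144 to 5558 CPM in control colon. The stromal sum was 5029 to 5733 CPM and 3506 to 3713 CPM. The smooth muscle, erythroid, myeloid and lymphoid sums overlapped between the groups. In bulk colon, fewer cells of a type and less RNA per cell cannot be told apart. What part cell make-up has in the lower miR-130b was not tested.

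The seed-sharing 3p arms of the colon were also read as a sum and as shares of it, as a description with no test. The 4 members with that seed summed to 9.89, 9.98 and 10.5 CPM in the DSS mice and to 11.4, 10.7 and 10.2 CPM in the controls, and these ranges overlapped. Within that sum miR-130a-3p held 81.2%, 87.6% and 82.7% of the counts in the DSS mice and 69.0%, 63.8% and 62.3% in the controls. miR-130b-3p held 15.9%, 11.3% and 16.2% in the DSS mice and 28.1%, 32.2% and 36.4% in the controls. A share within a library does not depend on scaling, but shares of a sum depend on each other.

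**Figure D2:**
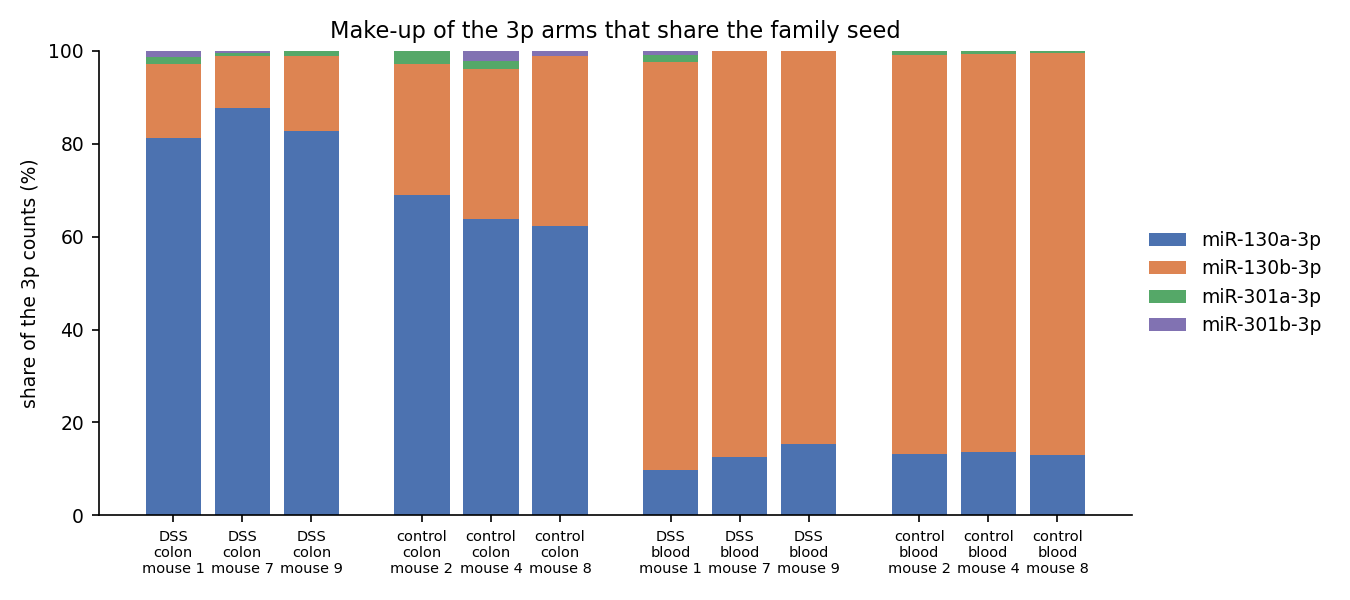
Share (%) of each 3p arm in the counts of all 3p arms with the family seed, 1 bar per library, ordered by tissue, group and mouse. miR-130a-3p is the larger share in every colon library, and miR-130b-3p takes 84.7% to 87.8% in every blood library.

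Ratios of counts within a library were used to compare members without any scaling. The ratio of miR-130b-3p to miR-130a-3p in colon was 0.196, 0.129 and 0.196 in DSS mice 1, 7 and 9 and 0.407, 0.504 and 0.584 in control mice 2, 4 and 8. Every DSS mouse was below every control mouse, and the mean log2 ratio differed by -1.52, or 2.86-fold lower in DSS mice. An exact permutation test (two-sided, n = 3 against 3) gave p = 0.1, the smallest that this design allows, and 0.7 after Benjamini-Hochberg adjustment over the 8 paralog ratios tested in both tissues. The same ratio in blood differed by 0.12 on the log2 scale (exact permutation p = 0.7, adjusted p 0.7).

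The 5p arm gave a like picture, in ratios that were added after the data had been seen. miR-130b-5p to miR-130a-3p was 1.52, 1.50 and 1.69 in DSS colon and 2.69, 3.96 and 3.60 in control colon, a difference of -1.10 in the mean log2 ratio. miR-130b-5p to miR-301a-5p was 1.52 to 2.05 in DSS colon and 3.15 to 3.57 in control colon, a difference of -0.94. Neither pair of groups overlapped, and the exact permutation p was 0.1 for each, again the smallest possible, with 0.2 after adjustment over the 4 added ratios.

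The balance of the arms of Mir130b was compared between DSS and control colon too. miR-130b-5p exceeded miR-130b-3p 7.73-fold to 11.7-fold in DSS colon and 6.17-fold to 7.84-fold in control colon, so the groups overlapped only narrowly. The mean log2 ratio of 3p to 5p differed by -0.41, with an exact permutation p of 0.2 (n = 3 against 3) and 0.45 after adjustment over 6 arm ratios. Since this design cannot go below 0.1, these values do not show that the balance was the same.

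Blood was compared in the same way, to ask whether the change in the gut was matched in the circulation. Of the 4 tested members 0 were SDE, as were 0 of the 484 miRNAs tested in edgeR (0%), although 56 of those had an unadjusted p under 0.05 and DESeq2 called 10. For the members, DESeq2 and the other alternatives gave 0 calls as well. All 4 members had overlapping groups, where 17.4% of the tested miRNAs did not overlap.

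miR-130b-3p, lower in DSS colon, stood in blood at 21.8, 17.8 and 19.9 CPM in DSS mice 1, 7 and 9 and at 19.4, 22.04 and 20.2 CPM in control mice 2, 4 and 8. The groups overlapped, with a log2 fold change of -0.05 ± 0.21 (SE) and an adjusted p of 0.954 in edgeR's quasi-likelihood test. miR-130b-5p, at 27.7, 39.5 and 44.7 CPM against 37.9, 33.1 and 31.7 CPM, had a log2 fold change of 0.12 ± 0.25 (SE) and an adjusted p of 0.924 by that edgeR test. Neither arm had a direction in blood that was larger than the spread between mice.

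miR-130a-3p in blood stood at 2.44, 2.55 and 3.60 CPM in the DSS mice and at 2.97, 3.51 and 3.05 CPM in the control mice, with a log2 fold change of -0.15 ± 0.25 (SE) and an adjusted p of 0.896 in edgeR's quasi-likelihood test. miR-301a-5p stood at 8.96, 2.87 and 4.85 CPM in the DSS mice and 3.999, 1.32 and 3.46 CPM in the controls, with overlapping groups. Its log2 fold change was 0.92 ± 0.50 (SE), with an adjusted p of 0.517 in the edgeR test. Mouse 1 was highest, with 356 counts, and mouse 4 lowest, with 23, and the log2 fold change ranged from 0.43 without mouse 1 to 1.30 without mouse 7, with an adjusted p of 0.38 to 0.855 in the edgeR test over the 6 omissions. All the blood counts of miR-301b-3p and 14 of the 26 of miR-301a-3p came from mouse 1 too.

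**Figure D3:**
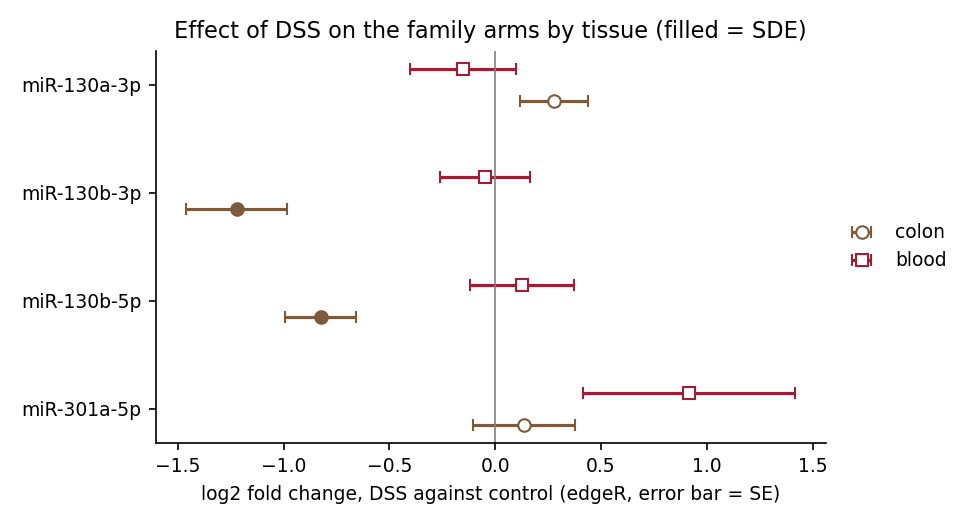
Log2 fold change of DSS against control (x axis, error bars are SE from edgeR) of the 4 tested arms, with colon as circles and blood as squares, filled where SDE. The filled points are miR-130b-3p at -1.22 and miR-130b-5p at -0.82, both in colon.

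A call in one tissue and not in the other does not show that the tissues differ, so the difference itself was tested over all 12 libraries. In edgeR, 0 of the 4 tested members passed, as did 0 of all 680 miRNAs tested (0%), of which 94 had an unadjusted p under 0.05. For miR-130b-3p the effect of DSS was higher in blood than in colon by 1.51 ± 0.41 (SE) on the log2 scale, with an unadjusted p of 0.00246 and an adjusted p of 0.142 in edgeR's quasi-likelihood test. For miR-130b-5p the difference was 1.25 ± 0.37 (SE), with an adjusted p of 0.180 by that edgeR test. DESeq2 called 37 miRNAs in all, among them both arms, with adjusted p of 0.0193 for miR-130b-3p and 0.0322 for miR-130b-5p, so the call depends on the tool. For miR-130a-3p (-0.13) and miR-301a-5p (1.12) the adjusted p was 0.927 and 0.478 in edgeR.

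Without scaling, the log2 ratio of miR-130b-3p to miR-130a-3p in blood minus that in colon of the same mouse was 4.80 to 5.72 in the DSS mice and 3.49 to 3.99 in the controls, a difference of 1.63 in the means. This comparison was added after the data had been seen. The groups did not overlap, and the exact permutation test (n = 3 against 3) gave p = 0.1, the smallest it can give.

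Blood and colon were then compared with each other in the same 6 mice. On TMM factors, both arms of miR-130b were higher in blood, miR-130a-3p was higher in colon and miR-301a-5p did not pass the test. Of the 4 tested members 3 were SDE, where 88.7% of all 680 miRNAs were SDE between these tissues, 37.6% higher and 51% lower in blood, so being SDE sets the members apart from few others. Over all miRNAs the median of the log2 fold changes stood at -0.86 (TMM factors) or -1.59 (total counts alone), so only levels relative to other miRNAs can be read. Blood and colon RNA were also extracted with different kits, and tissue and kit cannot be told apart.

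miR-130b-3p was 0.877 to 2.86 CPM in the colon libraries (median 1.92) and 21.2 to 36.3 CPM in the blood libraries (median 25.2), on TMM factors over all 12 libraries. It was higher in blood in 6 of 6 mice, by 8.32-fold to 31.1-fold. The log2 fold change was 3.92 ± 0.23 (SE), with an adjusted p of 2.08e-10 in edgeR's quasi-likelihood test. It was 3.17 with total counts alone, 3.17 in the control mice alone and 4.81 in the DSS mice alone.

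miR-130b-5p was 9.17 to 21.2 CPM in colon (median 14.0) and 34.5 to 60.8 CPM in blood (median 45.5), higher in blood in 6 of 6 mice. Its log2 fold change of 1.74 ± 0.19 (SE) had an adjusted p of 3.51e-07 in the edgeR test, and was 0.99 with total counts alone, 1.13 in the control mice alone and 2.55 in the DSS mice alone. In both tissues the 5p arm was the more abundant, but the gap between the tissues was smaller for it than for the 3p arm.

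miR-130a-3p was 4.90 to 6.80 CPM in colon (median 6.15) and 3.24 to 4.32 CPM in blood (median 3.99), lower in blood in 6 of 6 mice. Its log2 fold change of -0.62 ± 0.19 (SE), 1.54-fold lower in blood, had an adjusted p of 0.00538 in edgeR's quasi-likelihood test. The call was lost with RLE factors (log2 fold change -0.48, under the 1.5-fold limit), without mouse 2 (-0.55, also under that limit), and in the control mice (-0.55) and DSS mice (-0.53) taken alone. With total counts alone the value grew to -1.36. Both -0.62 and -1.36 lay above the median over all miRNAs at the same scaling (-0.86 and -1.59). Relative to the median miRNA, miR-130a-3p was therefore not lower in blood. miR-301a-5p was 4.48 to 7.35 CPM in colon and 1.38 to 14.9 CPM in blood, with a log2 fold change of -0.07 ± 0.34 (SE) and an adjusted p of 0.855 by the edgeR test.

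Ratios within a library gave the same order with no scaling. The ratio of miR-130b-3p to miR-130a-3p was 0.129 to 0.584 in colon and 5.54 to 8.94 in blood, so miR-130a-3p was the more abundant in every colon library and miR-130b-3p in every blood library. The mean log2 ratio was 4.52 higher in blood, or 22.9-fold, in 6 of 6 mice. An exact permutation test (two-sided, n = 6 against 6) gave p = 0.00216, the smallest possible, and 0.00866 after adjustment over 4 paralog ratios. That test treats the 12 libraries as independent, and the exact sign-flip test within the 6 mice, which keeps the pairing, gave p = 0.03125, the smallest it can give, and 0.0417 after adjustment. That adjusted value rests on the other ratios with miR-130b-3p in them, which had the same sign-flip p.

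The balance of the arms of Mir130b differed between the tissues as well. miR-130b-5p exceeded miR-130b-3p 6.17-fold to 11.7-fold in the colon libraries and 1.27-fold to 2.24-fold in the blood libraries. The mean log2 ratio of 3p to 5p was -2.97 ± 0.32 (SD, n = 6) in colon and -0.81 ± 0.33 (SD, n = 6) in blood, a 4.47-fold difference seen in 6 of 6 mice. The exact permutation p was 0.00216 (n = 6 against 6), with 0.00649 after adjustment over 3 arm ratios. With the pairing kept, the exact sign-flip test gave 0.03125, again its smallest value, and 0.0938 after adjustment, so the call was lost there.

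**Figure D4:**
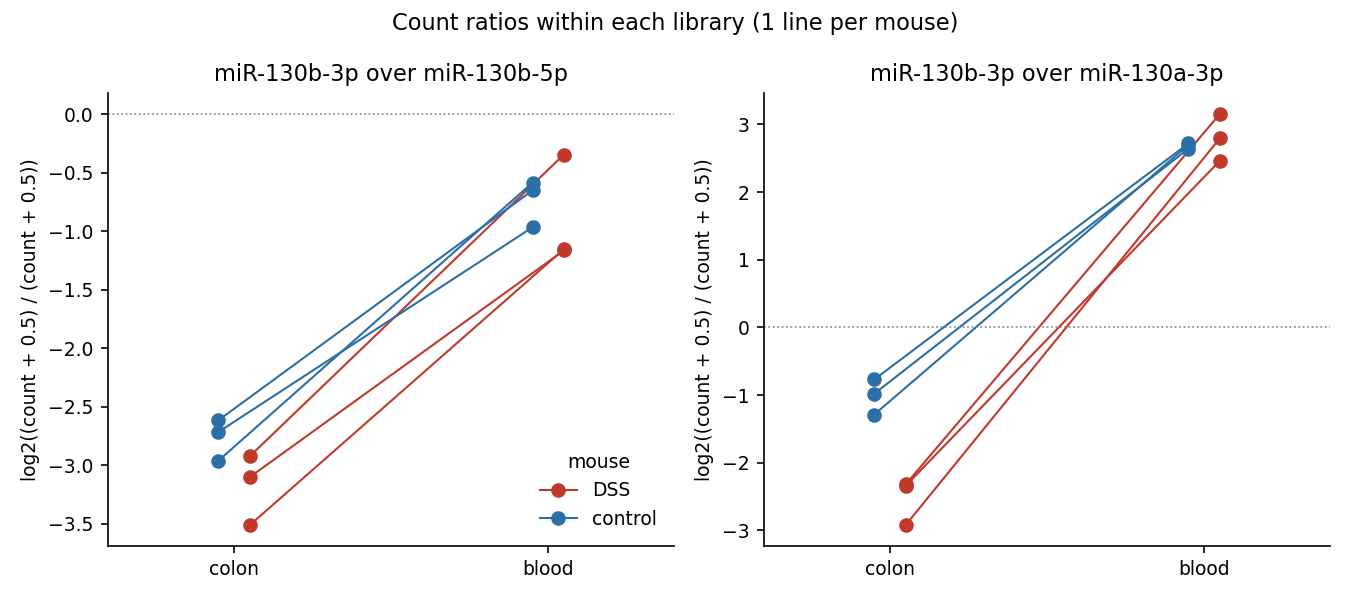
Log2 ratio of counts (0.5 added to each) within a library, for miR-130b-3p over miR-130b-5p (left) and over miR-130a-3p (right), with 1 line per mouse from colon to blood, red for DSS and blue for control mice. In both panels all 6 lines rise from colon to blood, and on the right the DSS mice start below the control mice in colon.

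For Mir301 the 5p arm held nearly all counts. Over the 6 colon libraries it had 802 counts against 14 of the 3p arm, and over the 6 blood libraries 764 against 26, and in each library in which the 3p arm was seen the 5p arm exceeded it at least 7.67-fold. The 3p to 5p ratio was 0.61 higher in blood on the log2 scale, with an exact permutation p of 0.535 (adjusted 0.802), so no difference was detectable at these counts. In blood, miR-301a-3p had 14, 0 and 0 counts in DSS mice 1, 7 and 9 and 5, 3 and 4 in control mice 2, 4 and 8. The plain ratio of counts was 0.0393 in DSS mouse 1 and 0.0392 in control mouse 8, so the groups overlapped, and they separated only once 0.5 had been added to each count (log2 ratio -4.62 against -4.51). On those log2 ratios the difference was -2.85, with an exact permutation p of 0.1 (n = 3 against 3) and 0.45 after adjustment. The values of mice 7 and 9 rest on 0 counts of the 3p arm. For Mir130a the reverse held, with 824 counts of the 3p arm and 3 of the 5p arm in colon and 471 and 0 in blood.

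The remaining paralog ratios rest on arms with 0 counts in several libraries. miR-130b-3p to miR-301a-3p was higher in blood (log2 difference 3.53, exact permutation p = 0.00866, adjusted 0.0115) and miR-301b-3p to miR-130b-3p lower (log2 difference -4.61, exact permutation p = 0.00433, adjusted 0.00866), both in 6 of 6 mice, with an adjusted exact sign-flip p of 0.0417 each. In these ratios miR-130b-3p is the arm with counts, at 20 to 59 per library in colon and 383 to 867 in blood. miR-301a-3p to miR-130a-3p differed by 0.98 (exact permutation p = 0.305, adjusted 0.305), and with DSS none of the ratios with miR-301a-3p or miR-301b-3p had an adjusted p under 0.45 in either tissue.

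The miRNAs whose levels most resembled those of miR-130a-3p, miR-130b-3p, miR-130b-5p and miR-301a-3p over the 6 colon libraries were sought among 268 others with a mean of at least 10 CPM, by Pearson's r of log2(CPM + 1), as a description of points that share libraries and treatment. For miR-130b-3p they were miR-210-3p (r = 0.97), miR-187-3p (0.96) and miR-30e-5p (0.95). All 3 were SDE and lower in DSS colon, with log2 fold changes of -1.15, -0.91 and -0.67. For miR-130b-5p they were miR-196b-5p (0.98), miR-423-3p (0.97) and miR-210-3p (0.96), of which miR-196b-5p (log2 fold change -0.67) and miR-210-3p were SDE and lower and miR-423-3p (-0.31, adjusted p 0.127 in edgeR's quasi-likelihood test) was not. A miRNA picked for its likeness to an arm that differs between the groups tends to differ between them too, so these calls add no support. miR-210-3p, known as a miRNA of the hypoxia response, was named for both arms. Those arms followed each other in the same libraries, so this is not separate support, and a link to hypoxia was not tested.

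For miR-130a-3p the nearest were miR-136-3p (r = 0.97), miR-374b-5p (0.96) and miR-455-5p (0.94), none of them SDE, with log2 fold changes of 0.83, 0.40 and 0.52 in DSS colon. For miR-301a-3p, at 0 to 5 counts per library, the highest values were 0.77 for miR-690, 0.74 for miR-6538 and 0.74 for miR-345-3p. miR-130a-3p itself ran against miR-130b-3p in colon (r = -0.86), while in blood the correlation was weak (0.27). The arms of miR-130b, which followed each other in colon, had r = -0.65 in blood.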

How the data were processed

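Small RNA of colon and blood from 6 mice was sequenced. The authors clipped adapters with Flexbar, merged identical reads with fastx-toolkit, assigned them to mature miRNAs of miRBase through miRDeep2 and deposited unnormalized counts. They also deposited a normalized signal per tissue, which is the count divided by 1 constant per library (DESeq2 size factor), used here only as an alternative. Tests used the counts in R (4.3.3) with edgeR (4.0.16): filterByExpr, TMM factors, glmQLFit and glmQLFTest, with Benjamini-Hochberg adjustment over all miRNAs tested. The SE of a log2 fold change was its size divided by the square root of F. Levels are CPM (counts per 1000000) on effective library sizes. Arm and paralog ratios were log2((count + 0.5)/(count + 0.5)), compared with exact permutation tests (two-sided) in Python (3.11.15) with scipy (1.17.1). The fits were tested on simulated counts.

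Alternatives were other factors and filters, DESeq2 (1.42.0), limma (3.58.1) on log2(signal + 1), robust dispersion, all 12 libraries in a fit, each mature sequence counted once, other pseudocounts, each mouse left out, the grouping of the labels and, between tissues, the mouse as a replicate block. Replicates are mice, and colon and blood with the same number come from the same mouse, which pairs them. Deviations from the group means of paired libraries correlated by -0.297 to 0.158 over 357 miRNAs. Members, marker lists and tests were chosen with earlier results of these data known. Named beside the members were miRNAs with the same seed, those with its first 6 bases within the first 9 bases of the sequence, and for 4 members the 3 most alike miRNAs in colon. Mature sequences were found for 1898 of the 1978 entries. Gene positions are from GENCODE vM21 (GRCm38). Molecular identifiers are not given in the sources used here, so counts come from reads and not molecules, and intervals cover counting error only. A read can be counted under several entries of identical sequence.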

Additional observations from a re-analysis of the deposited data

How the results depend on the processing

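At 20 to 59 counts of miR-130b-3p per colon library and 0 to 14 of miR-301a-3p and miR-301b-3p, depth limits the low arms most, and 3 mice per group limit the DSS comparisons. The 2 colon calls became 0 with upper-quartile factors, total counts alone, all 12 libraries in 1 fit or the grouping of the labels, where 8 of 542, 47 of 542, 0 of 680 and 0 of 542 of all miRNAs were called, against 55 of 542. With a mouse left out they were 0 to 2, and 0 to 44 over all miRNAs. They stayed at 2 where the calls over all miRNAs were 16 of 542 (RLE factors), 37 of 542 (limma), 53 of 542 (robust dispersion), 54 of 534 (each sequence counted once), 51 of 454 (at least 10 counts in every library), 76 of 1300 (no filter) and 74 of 1300 (DESeq2). In blood, members called were 0 under all alternatives, where the calls over all miRNAs were 25 of 1121 with no filter, 10 of 1121 with DESeq2, 1 with all 12 libraries or without mouse 2, and 0 otherwise. Between the tissues members called were 2 or 3, where 597 of 680 to 601 of 680 of all miRNAs were called with RLE factors, total counts alone or the mouse as a block, 600 of 671 with each sequence counted once, 826 of 1405 with no filter, 767 of 1405 with DESeq2, 534 of 603 and 529 of 617 in control and DSS mice alone, and 608 to 620 with a mouse left out. For the difference between tissues in the effect of DSS, 2 members and 37 of 1405 miRNAs were called with DESeq2, and no member otherwise, where the calls over all miRNAs were 8 of 680 with RLE factors, 27 of 1405 with no filter, 1 with the block, 2 without mouse 1 and 0 otherwise. The mouse as a replicate block changed no count of members called (0 for that difference, with 1.51 for miR-130b-3p, and 3 between tissues), and the sign-flip test within mice gave 0.03125, the smallest possible, for the Mir130b arm ratio (0.0938 adjusted) and miR-130b-3p to miR-130a-3p (0.0417 adjusted).

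Under the grouping of the labels, directions turned. Log2 fold changes in colon were -0.068 (miR-130a-3p), 0.35 (miR-130b-3p), 0.25 (miR-130b-5p) and -0.22 (miR-301a-5p), in blood 0.13 (miR-130b-3p) and -0.23 (miR-130b-5p), and for the difference between tissues -0.33 and -0.63. Ratios became -0.17 (Mir130a arms, blood), 0.21 and 0.36 (Mir130b arms, colon and blood), 1.97 and 2.77 (Mir301 arms), 0.48 (miR-130b-3p to miR-130a-3p, colon), 1.81 and 2.82 (miR-301a-3p to miR-130a-3p), -2.65 (miR-130b-3p to miR-301a-3p, blood), 0.43 (miR-130b-5p to miR-301a-5p, colon), and 0.27 and -0.18 (miR-130b-5p to miR-130a-3p). The cause was not tested.

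Values near 0 changed sign too. In blood, miR-130b-3p was 0.0022 with RLE factors, 0.065 with upper-quartile factors, 0.20 with total counts, 0.0066 with DESeq2 and 0.25 with all 12 libraries, and -0.070 to 0.077 with a mouse left out, and miR-130a-3p was 0.070 with total counts, 0.10 with all 12 libraries and -0.30 to 0.0024 with a mouse left out. miR-301a-5p was -0.070 to 0.29 in colon with a mouse left out, and between tissues 0.0048 with RLE factors, 0.57 in DSS mice and -0.53 to 0.19 with a mouse left out. Ratios with arms near 0 counts moved with the pseudocount: between tissues, Mir130a arms were -0.26 and -0.60 with 1 and 5 added, and miR-301a-3p to miR-130a-3p 0.96 with 5 added (exact permutation p = 0.0216). With a mouse left out, ratios that turned ranged over -0.25 to 0.34 (Mir130a arms between tissues), -1.21 to 0.64 (Mir301 arms, colon), -0.057 to 0.29 (miR-130b-3p to miR-130a-3p, blood), -1.34 to 0.28 (miR-301a-3p to miR-130a-3p, colon), and -0.35 to 1.48 and -0.080 to 1.72 (miR-301b-3p to miR-130b-3p, colon and blood).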

Other observations

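Among the miRNAs that carry the first 6 bases of the family seed within their first 9 bases, miR-148a-3p, miR-148b-3p, miR-152-3p and miR-350-5p were counted, and miR-291b-3p had 0 counts. In colon, miR-148a-3p stood at 9406 to 23199 CPM in the DSS mice and 34444 to 40649 CPM in the controls, far above every member of the family, with a log2 fold change of -1.28 ± 0.32 (SE) and an adjusted p of 0.0491 in edgeR's quasi-likelihood test. miR-148b-3p (log2 fold change -0.21, adjusted p 0.379), miR-152-3p (0.35, 0.168) and miR-350-5p (0.16, 0.735) did not pass that edgeR test in colon, and none of the 4 passed in blood, where the adjusted p was 0.539 to 0.925. Between the tissues, miR-148b-3p (log2 fold change 1.75) and miR-350-5p (2.62) were SDE and higher in blood, and miR-148a-3p (-2.29) and miR-152-3p (-5.82) were SDE and higher in colon.

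miR-301b-5p, the other arm of Mir301b and not among the members, had 4 to 31 counts per colon library and 2 to 9 per blood library, more than miR-301b-3p in every colon library. Its log2 fold change with DSS in colon was -0.11 ± 0.60 (SE), with an adjusted p of 0.907 in edgeR's quasi-likelihood test. Between the tissues miR-301b-5p was SDE and lower in blood, unlike the arms of the neighbouring Mir130b. That log2 fold change was -1.42 ± 0.43 (SE), with an adjusted p of 0.00585 in the edgeR test.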
